A study of Homo sapiens and Mus musculus with 20 samples.

Results

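Chromatin accessibility was compared between MCF10A cells without and with Satb1, as the regions called open by ATAC-seq in each. MCF10A is an immortalized human mammary epithelial cell line that has no Satb1 of its own. Native MCF10A cells gave 1 list, and MCF10A cells that carry Satb1 as a fusion to eGFP gave the other. The fusion was driven by a cumate-inducible promoter in a lentiviral vector that had integrated stably, and the cells were selected and sorted, so the 2 lists differ in the vector, selection and sorting as well as in Satb1. In each, 50000 cells were tagmented with Tn5 for 30 min and sequenced paired-end. The 2 lists hold 382159 of the 624073 regions in the 10 region lists of the series. There was 1 list per condition, so no difference between conditions could be set against a replicate error, and none was tested.

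A region was called shared when at least 1 bp of it lay in a region of the other list, and gained or lost when none did. The list from Satb1-expressing cells held 206170 regions, of which 61371 (29.8% of the list) were gained and 144799 were shared. The native list held 175989 regions, of which 19674 (11.2% of the list) were lost and 156315 were shared. Gained and lost describe membership in the lists only, because a region below the caller's threshold is absent from a list without being closed. The read depth behind either list is unknown, and depth moves the number of weak regions. In brackets after a share of regions stands its exact (Clopper-Pearson) 95% interval, and after a mean its 95% interval over the regions. Both cover counting error only, and neighbouring regions are not independent.

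Tn5 inserts sequencing adapters where DNA is not wrapped in nucleosomes or otherwise covered, so open regions mark promoters, enhancers and insulators in use. Satb1 is a nuclear protein with CUT domains and a homeodomain that binds A/T-rich DNA, is best known from thymocytes, where it organizes chromatin, and has been studied in breast cancer cells. AP-1, a dimer of Fos and Jun family proteins, binds enhancers of mammary basal cells at the letters TGANTCA, where N is any base.

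Sequences at the centres of strong gained and lost regions are given as examples of the DNA in which letters were counted. They do not stand for their classes, and 1 gained window that met the same rule, with 1 match to TGANTCA, is not shown. Each line gives the central 200 bp on the plus strand of hg19 for 2 gained and 3 lost regions, taken from the top 5 of each class by −log10 q and leaving out windows in annotated exons. Capitals mark matches, on either strand, to TGANTCA or to the Satb1 consensus, searched as the word CTAATAA and its variants with a final G (CTAATAG), with a first T (TTAATAA) or with both changes (TTAATAG). No search word for AP-1 overlaps one for Satb1. Over all regions of each list, 20.9% of the 200 bp windows in Satb1-expressing cells and 22.3% in native cells held TGANTCA, and 7.11% and 7.95% held the Satb1 consensus.
Gained, near LNX1, chr4:54732394-54732593: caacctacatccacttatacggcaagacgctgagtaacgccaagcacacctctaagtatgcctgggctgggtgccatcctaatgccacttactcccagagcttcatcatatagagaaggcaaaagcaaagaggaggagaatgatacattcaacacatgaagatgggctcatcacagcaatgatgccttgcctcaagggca
Gained, near DNAH5, chr5:13537102-13537301: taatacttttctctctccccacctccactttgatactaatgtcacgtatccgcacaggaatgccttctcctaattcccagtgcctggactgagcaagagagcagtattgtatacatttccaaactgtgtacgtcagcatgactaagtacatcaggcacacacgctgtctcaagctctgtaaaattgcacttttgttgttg
Lost, near ABCB11, chr2:169882563-169882762: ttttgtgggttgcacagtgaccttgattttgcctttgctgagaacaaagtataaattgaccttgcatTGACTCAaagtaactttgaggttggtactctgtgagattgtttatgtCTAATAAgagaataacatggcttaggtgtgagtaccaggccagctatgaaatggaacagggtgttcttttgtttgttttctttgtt
Lost, near TP53TG3, chr16:32876620-32876819: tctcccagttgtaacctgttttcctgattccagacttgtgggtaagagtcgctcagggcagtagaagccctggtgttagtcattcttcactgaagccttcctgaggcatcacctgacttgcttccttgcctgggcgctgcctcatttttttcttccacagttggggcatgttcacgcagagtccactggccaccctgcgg
Lost, near KAZN, chr1:14647129-14647328: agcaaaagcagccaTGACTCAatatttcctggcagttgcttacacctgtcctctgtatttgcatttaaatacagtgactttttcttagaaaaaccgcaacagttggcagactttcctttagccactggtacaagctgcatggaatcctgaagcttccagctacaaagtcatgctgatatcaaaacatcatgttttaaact

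The strongest gained region is intergenic on chromosome 4, 108 kb from the nearest start, that of VEGFC, a lymphangiogenic growth factor. It had a fold enrichment of 10.7 over local background and a −log10 q of 100. The next was chr4:54732159-54732829, in an intron 165 kb from the start of LNX1, a ubiquitin ligase gene, with a −log10 q of 86.8. The region in an exon of METTL7A (chr12:51324225-51324700) had a −log10 q of 73.3, the one 263 kb from OPRK1, the kappa opioid receptor gene, 63.1, and the one 408 kb from DNAH5, a dynein gene of cilia, 59.2. The nearest region of the native list was between 1.27 kb (METTL7A) and 16.6 kb (DNAH5) away. None of the 5 overlapped a Satb1 ChIP-seq peak. Only 0.326% of all gained and 0.548% of shared regions of the list did, so nothing is read from this.

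The strongest lost region, chr2:169882313-169883013, lies in an intron of ABCB11, the bile salt export pump gene, with a fold enrichment of 16.2, a −log10 q of 96.6 and a Satb1 peak summit 1.61 kb away. Next came an intergenic region 189 kb from TP53TG3 (chr16:32876417-32877022), at a −log10 q of 93.5. A region 0.428 kb from a start of CHFR, a mitotic checkpoint gene (chr12:133484888-133485721), was the closest of the 5 to a start, at 75.8. The region in an intron of KAZN, a gene for a cell junction protein, reached 54.5 and the one 239 kb from SLITRK1 reached 53.7. None of the 5 overlapped a Satb1 peak either, beside 0.305% of all lost regions that did. A Satb1 peak summit lay within 10 kb of 13.5% of all lost regions.

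Most gained and lost regions were weak. The median −log10 q was 2.24 for gained and 17.2 for shared regions of the Satb1-expressing list, and 2.71 for lost and 12.8 for shared regions of the native list. Median fold enrichment was 2.03 against 4.08 in the first list and 2.65 against 4.95 in the second. With each list cut into 10 equal steps of strength, 85.2% (84.7 to 85.7) of regions were gained in the weakest step of the Satb1-expressing list, 9.79% (9.39 to 10.2) in the fifth from the top, and 0 of 20617 in the strongest, which allows a share of up to 0.0179%. The native list ran from 32.4% (31.7 to 33.1) lost in its weakest step to 0.0114% in its strongest. A −log10 q of at least 5 was reached by 6642 gained regions (10.8% of them) and 3419 lost regions (17.4% of them).

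Keeping equal numbers of the strongest regions changed what a non-overlap meant. Among the 50000 strongest of each list, 15.2% (14.9 to 15.5) of the Satb1-expressing regions and 12.6% (12.3 to 12.9) of the native regions had no partner in the other 50000. Against the whole other list those shares fell to 24 regions (0.048%) and 42 regions (0.084%). Of the 7605 regions in the top 50000 of Satb1-expressing cells only, 7581 were present lower down in the native list, at a median rank of 60459 (quartiles 54519 and 70789). Of the 6305 in the native top 50000 only, 6263 were found in the other list, at a median rank of 60184. At 10000 regions each the shares were 23.8% and 23.2%, and 0 of 10000 in either list were missing from the whole other list, which allows up to 0.0369%. At 175989 regions each, 20.8% were gained and 14.1% lost. All but 24 and 42 of the 50000 strongest open regions were thus present in both lists, with ranks exchanged, and most unmatched regions were weak.

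**Figure D1:**
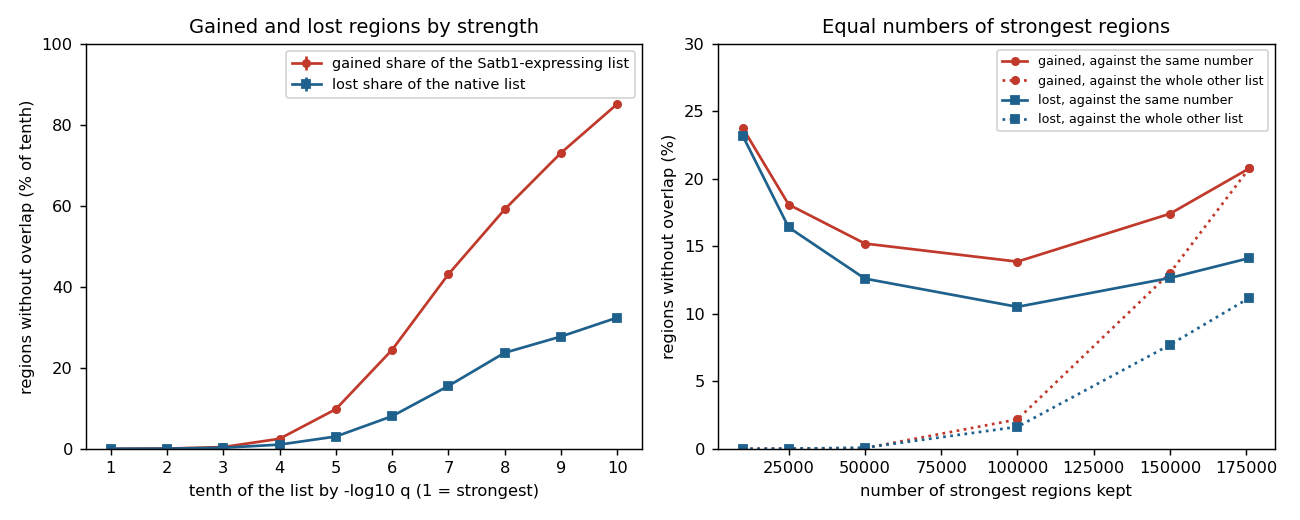
Left, share of regions with no overlap in the other list (percent, vertical bars 95% intervals) in each of 10 equal steps of a list, from strongest (1) to weakest (10) by −log10 q. Right, the same share among the strongest regions, in numbers along the horizontal axis, against as many regions of the other list (solid) or the whole other list (dotted). Gained shares climb from 0% to 85.2% and lost shares from 0.0114% to 32.4%.

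Regions common to both lists kept their order. Over 133478 pairs in which each region overlapped exactly 1 of the other list, the Spearman correlation was 0.893 for −log10 q, 0.89 for fold enrichment and 0.716 for width. These are descriptions across regions of 2 libraries. At like p-values the fold enrichments differed: for a −log10 p from 10 to 11 the median was 3.13 in Satb1-expressing and 4.18 in native cells, so fold enrichments were compared within a list only.

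Regions were wider in the Satb1-expressing list. Its median width was 628 bp against 550 bp in the native list, and in the pairs 687 bp against 563 bp, with the Satb1-expressing region the wider in 64.6%. Gained regions were narrow, with a median of 404 bp (quartiles 268 and 813), against 749 bp for shared ones. Lost regions were narrower, with a median of 287 bp (quartiles 211 and 419), against 606 bp for shared ones. In bases, 143 Mb were covered by both lists, 113 Mb by the Satb1-expressing list only and 22 Mb by the native list only. Of the 113 Mb, 40.1 Mb lay in gained regions and 73.1 Mb in shared regions that reached beyond the native ones. A region of the Satb1-expressing list overlapped 2 native regions in 6420 cases and 3 or more in 2179, up to 31, and the widest spanned 150183 bp. The reverse was rarer, with 1492 native regions overlapping 2 and 39 overlapping 3 or more.

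Gained and lost regions did not abut the other list. Only 328 gained regions (0.535%) and 345 lost regions (1.75%) lay within 100 bp of a region of the other list. The median gap was 3.65 kb for gained and 4.29 kb for lost regions. Within 10 kb of the other list lay 80.4% of gained and 72.9% of lost regions.

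Both classes were mainly distal. A promoter, taken from 1000 bp upstream to 100 bp downstream of a protein-coding start, held the midpoint of 1.76% (1.66 to 1.87) of gained and 5.69% (5.58 to 5.82) of shared regions in the Satb1-expressing list. It held 1.52% (1.35 to 1.70) of lost and 6.03% (5.92 to 6.15) of shared regions in the native list. Strong regions hold most promoters, so the classes were also set side by side at like strength. For a −log10 q from 5 to 10, promoters held 1.33% (1.04 to 1.67) of gained against 2.27% (2.08 to 2.47) of shared regions, and 1.20% (0.819 to 1.68) of lost against 2.53% (2.34 to 2.73) of shared regions.

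Away from promoters the classes parted. Gained regions were as close to genes as shared ones, with a median distance to a protein-coding start of 27.6 kb against 28.4 kb, 46.1% of midpoints in introns and 4.74% in exons. Lost regions were farther away, at 45.0 kb against 26.3 kb, with 52.7% (52.0 to 53.4) of midpoints intergenic against 46.3% (46.1 to 46.6) of shared ones and 2.80% in exons. Of lost regions, 7.04% (6.69 to 7.41) lay over 500 kb from any start, against 3.86% (3.76 to 3.95) of shared regions. At a −log10 q from 5 to 10, however, both gained (45.1 kb against 35.5 kb) and lost regions (65.7 kb against 35.3 kb) were farther from a start than shared ones.

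Lost regions were rich in A/T. Their central 200 bp held 56.0% A/T (SD 8.16, interval 55.9 to 56.1, n = 19668), against 51.6% (SD 10.2, n = 156260) in shared regions of the native list, a difference of 4.40 percentage points (4.27 to 4.52). The surroundings, 1 to 2 kb from the midpoint, held 58.5% against 55.7%. CpG dinucleotides, which are dense at promoters, numbered 0.926 per 100 bases in lost and 1.80 in shared regions. The intervals of lost and shared regions lay apart in each bin of strength below a −log10 q of 50, for example 58.3% (58.1 to 58.6) against 54.0% (53.9 to 54.1) from 5 to 10.

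Gained regions held 50.4% A/T (SD 8.38, n = 61351) against 52.3% (SD 9.90, n = 144744) in shared regions of their list, a difference of −1.93 points (−2.02 to −1.85). That difference sat in the weak regions: it was 49.1% against 51.2% below a −log10 q of 2, and 53.7% (53.5 to 53.9) against 54.1% (54.0 to 54.2) from 5 to 10. Among the 100000 strongest of each list the sign turned, but for another set of regions. The 13867 without overlap in the native 100000 lay 2.09 points (1.94 to 2.23) above the rest. Only 2176 of the Satb1-expressing 100000 were absent from the whole native list.

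The AP-1 letters were rarer in gained and lost regions than in shared regions over whole lists, and more frequent in gained regions once strength was matched. Over all strengths TGANTCA stood in the central 200 bp of 17.2% (16.9 to 17.5) of gained against 22.5% (22.2 to 22.7) of shared regions, and in 16.96% (16.4 to 17.5) of lost against 22.97% (22.8 to 23.2) of shared regions. Most gained regions were weak, and below a −log10 q of 2 every class held the letters less often than above it. The comparison at like strength was chosen after seeing the data. For a −log10 q from 5 to 20, TGANTCA stood in 42.7% (41.5 to 43.9) of 6481 gained regions, against 25.2% (24.8 to 25.6) of 46299 shared regions of the list. In the native list it stood in 20.2% (18.9 to 21.6) of 3294 lost regions, against 26.7% (26.3 to 27.1) of 48153 shared regions. Width was not matched, although the letters were counted in a fixed 200 bp. From 5 to 10 the median was 328 bp in gained against 439 bp in shared regions, and 316 bp in lost against 399 bp in shared regions. The effect of width on these shares was not tested. With strength the gained share climbed from 7.64% below 2 through 19.4% and 41.1% to 50.2% (47.3 to 53.2) from 10 to 20, whereas the shared share reached 26.6% there. Below a −log10 q of 2 it was lower in gained than in shared regions (9.44%), and lost regions (10.3%) were near shared ones (10.6%). Of the 23 chromosomes other than Y, the gained share for 5 to 20 was above the shared share in 23, and the lost share above the shared one in 2.

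**Figure D2:**
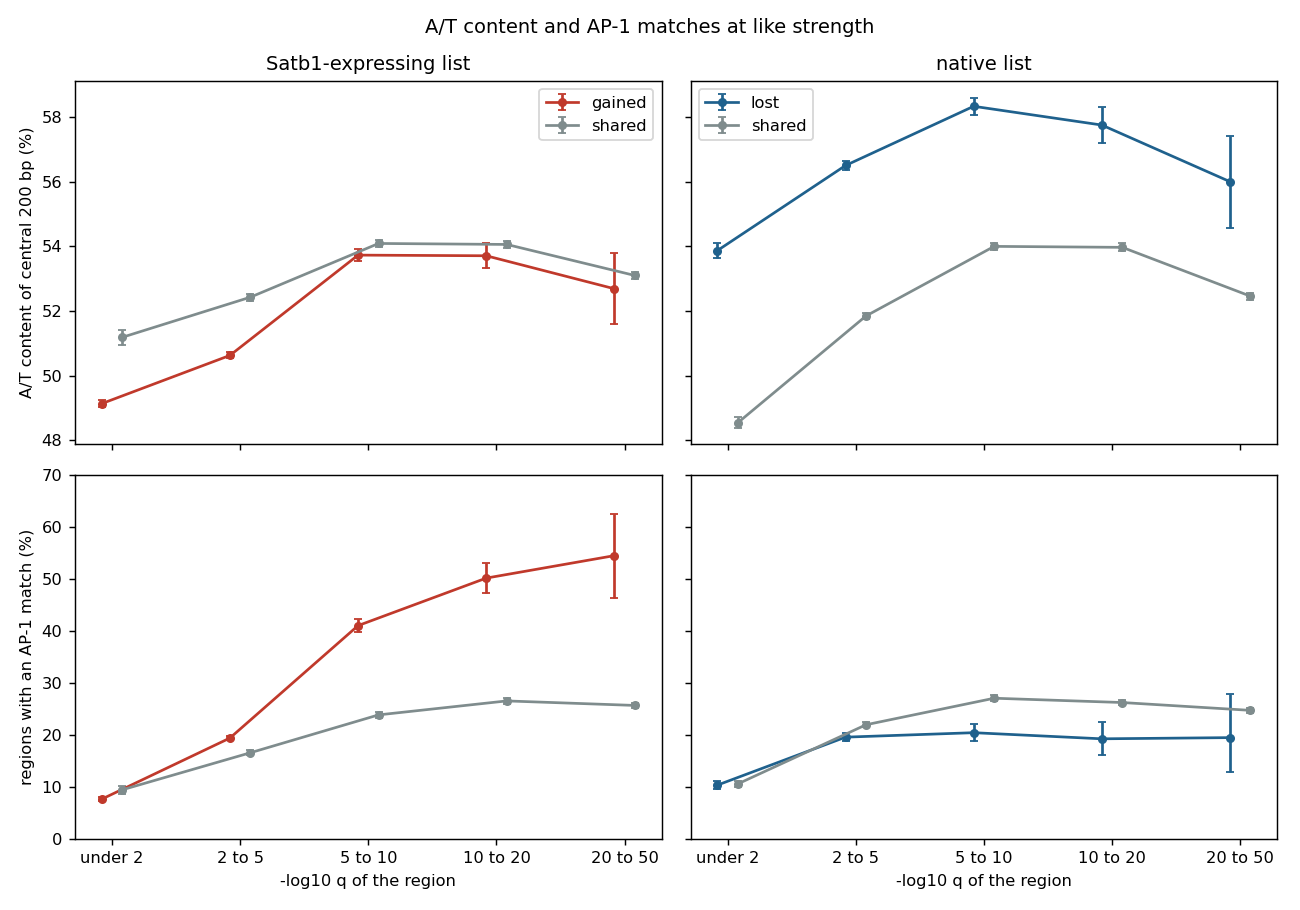
Mean A/T content of the central 200 bp (top, percent, axis not starting at 0) and share of regions with an AP-1 match (bottom, percent) by −log10 q, for the Satb1-expressing list (left) and the native list (right), with 95% intervals. AP-1 shares of gained regions lie below those of shared regions under 2 and above them from 2 upward, reaching 50.2% against 26.6% at 10 to 20, and lost regions lie above shared ones in A/T content at each strength below 50.

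The AP-1 difference held in several subsets that were chosen after its size was known. Within bins of A/T content of 40 to 50%, 50 to 55%, 55 to 60% and 60 to 70%, the gained share was 33.2%, 45.5%, 50.5% and 46.7%, against 15.9%, 27.4%, 31.5% and 31.8% in shared regions. The lost share in these bins was 8.38%, 15.7%, 17.4% and 26.8%, against 19.1%, 29.8%, 32.2% and 31.6%. In regions over 5 kb from a protein-coding start it was 43.4% (42.2 to 44.7) in gained and 26.5% (26.1 to 26.9) in shared regions. An Alu word, TGTAATCCC, stood in 5.82% (5.26 to 6.42) of gained and 3.57% (3.40 to 3.74) of shared regions, and without these regions the AP-1 shares were 41.6% and 24.97%. It stood in 1.002% of lost and 3.13% of shared regions of the native list, where the AP-1 shares without it were 20.3% and 26.4%. In the top 50000 of Satb1-expressing cells only, where nearly every region was also found in the native list, the share was 34.5% (33.4 to 35.5). It was 19.5% (18.5 to 20.5) in the native top 50000 only and 21.1% in regions of both top lists by Satb1-expressing coordinates.

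AP-1 matches sat at the midpoints. Within 50 bp of the midpoint there were on average 86.6 matches per 1000 gained regions and 25 bp step, against 47.4 in shared regions of the list, 37 in lost and 51.1 in shared regions of the native list. Between 400 and 500 bp away the 4 classes had 9.55, 9.89, 8.20 and 9.80. An open search of all 2080 words of 6 letters, both strands joined, was led by the same letters. GACTCA stood in 39.1% of gained and 24.4% of shared regions and GAGTCA in 39.8% and 25.4%, and the next 4 words, led by AGTCAT (27.1% and 19.2%), overlap them. Words more frequent in lost regions were made mostly of A and T, led by AAAACA (35.1% against 23.2%) and including AAATAA (30.4% against 20.9%), and words less frequent in them were led by CCTCCC (14.1% against 23.2%).

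**Figure D3:**
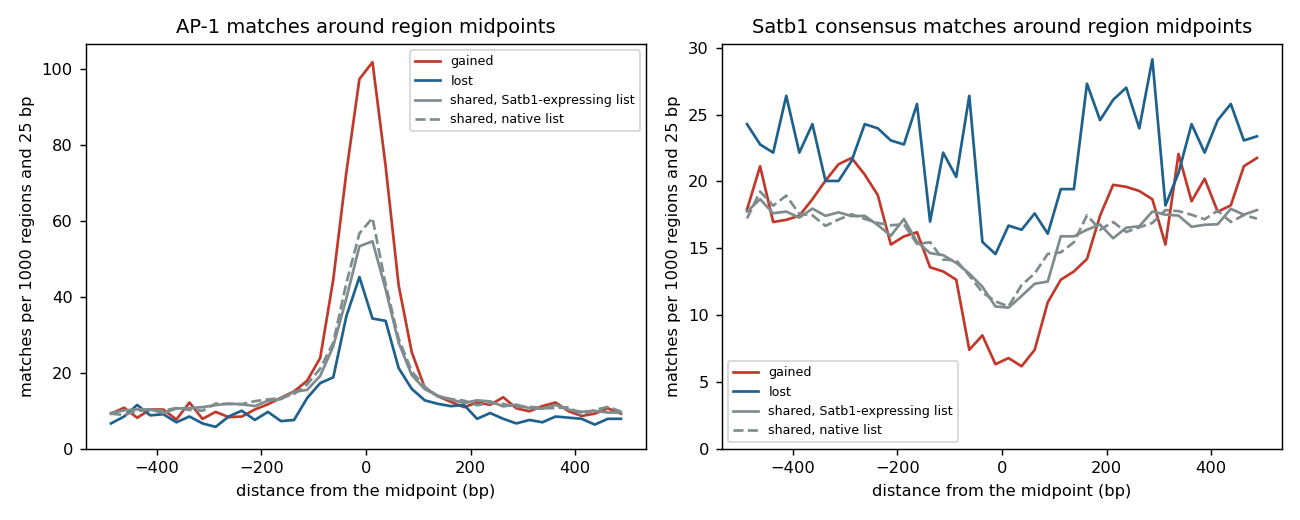
Matches per 1000 regions and 25 bp to the AP-1 letters (left) and to the Satb1 consensus (right) by distance from the region midpoint in bp, for regions with a −log10 q from 5 to 20. The AP-1 curve of gained regions peaks highest, and all curves of the Satb1 consensus dip toward the midpoint.

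The Satb1 consensus went the other way. For a −log10 q from 5 to 20 it stood in 5.91% (5.35 to 6.51) of gained and 8.55% (8.30 to 8.81) of shared regions, and in 12.7% (11.6 to 13.9) of lost and 8.86% (8.60 to 9.11) of shared regions. It is itself an A/T-rich word, so it was read within bins of A/T content. From 55 to 60% A/T it stood in 7.22% (5.99 to 8.61) of gained against 9.10% (8.55 to 9.67) of shared regions, and in 10.6% (8.53 to 13.0) of lost against 9.54% (8.998 to 10.1) of shared regions. The intervals of lost and shared regions overlapped in all 4 bins of A/T content. Those of gained and shared regions overlapped from 55 to 60% only and lay apart in the other bins, with gained regions lower. From 40 to 50% A/T the consensus stood in 1.7% of gained against 2.81% of shared regions. It stood in 4.53% against 6.23% from 50 to 55% and in 11.1% against 15.7% from 60 to 70%. All 4 classes held fewer matches at the midpoint than 400 to 500 bp away, for example 6.94 against 19.0 per 1000 regions and 25 bp in gained and 15.8 against 24.1 in lost regions.

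Of the other factors searched, TEAD proteins (CATTCC), which partner with AP-1 in epithelial cells, had matches in 15.3% (14.4 to 16.2) of gained against 14.4% (14.1 to 14.7) of shared regions, and in 18.4% (17.1 to 19.8) of lost against 14.7% (14.4 to 15.1) of shared regions. RUNX letters (TGTGGTT) stood in 6.42% (5.83 to 7.04) of gained against 5.21% (5.01 to 5.41) of shared regions. Forkhead letters (TGTTTAC) stood in 6.28% (5.48 to 7.17) of lost and 3.77% (3.61 to 3.95) of shared regions. The E-box CACCTG, which Snail and ZEB repressors bind, stood in 20.5% (19.5 to 21.5) of gained against 18.6% (18.3 to 19.0) of shared regions, and in 13.5% (12.4 to 14.8) of lost against 17.9% (17.6 to 18.2) of shared regions. The GC box (GGGCGGG) was rarer than in shared regions in gained (1.37% against 2.08%) and lost regions (0.850% against 2.57%). A CTCF core (CCACTAGGG) stood in 0.417% of gained and 0.434% of shared regions, and in 4 lost regions (0.121%, 0.0331 to 0.311) against 0.442% of shared ones. ETS letters (CCGGAAG) stood in 0.710% of gained against 0.840% of shared and 0.455% of lost against 0.820% of shared regions. CCAAT stood in 25.8% (24.7 to 26.9) of gained against 23.6% (23.2 to 23.99) of shared and 27.2% (25.7 to 28.8) of lost against 23.9% (23.5 to 24.3) of shared regions, and AACCGGTT of the Grainyhead-like factors in 1 gained and 1 lost region.

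Few open regions of any class coincided with Satb1 binding. Peaks of the full-length Satb1 ChIP-seq list from MCF10A cells overlapped 200 gained regions (0.326%, 0.282 to 0.374) and 794 shared regions (0.548%, 0.511 to 0.588) of the Satb1-expressing list. They overlapped 60 lost regions (0.305%, 0.233 to 0.392) and 696 shared regions (0.445%, 0.413 to 0.480) of the native list. Satb1 peak summits lay within 10 kb of 9.67% (9.44 to 9.91) of gained and 10.9% (10.8 to 11.1) of shared regions. The corresponding shares were 13.5% (13.0 to 14.0) of lost and 10.5% (10.4 to 10.7) of shared regions. Satb1 peaks are A/T rich, so the shares were also read within bins of A/T content. From 60 to 70% A/T the summit shares were 17.0% (16.1 to 17.8) of gained against 16.0% (15.6 to 16.4) of shared regions. For lost against shared regions they were 17.6% (16.6 to 18.5) against 16.0% (15.6 to 16.4). The summit intervals of gained and shared regions overlapped in every bin. Those of lost and shared regions lay apart from 60 to 70% and from 40 to 50% (7.89% against 6.52%), and overlapped in between. Direct overlap from 60 to 70% A/T was 1.005% (0.797 to 1.25) in gained against 0.958% (0.853 to 1.07) in shared, and 0.554% (0.388 to 0.766) in lost against 0.911% (0.810 to 1.02) in shared regions, which were also the wider ones. From 40 to 50% A/T it was 0.0827% in gained against 0.335% in shared regions, and from 50 to 55% 0.237% against 0.406%. These intervals lay apart, while those from 55 to 60% overlapped (0.506% against 0.523%). In the same bins it was 0.135%, 0.02575% and 0.2505% in lost against 0.194%, 0.3275% and 0.489% in shared regions. Of these, only the intervals from 50 to 55% lay apart.

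Seen from the 22877 Satb1 peaks, 21680 (94.8%) touched neither list, 647 (2.83%) touched both, 415 (1.81%) the Satb1-expressing list only and 135 (0.590%) the native list only. Their median fold enrichment differed little, at 7.28, 7.46, 7.60 and 7.60. Peaks of Satb1 without its homeodomain, and of a construct with the N-terminal and CUT1 domains only, touched 0.774% and 0.629% of gained against 1.501% and 1.505% of shared regions, and 1.17% and 1.19% of lost against 1.32% and 1.30% of shared regions. Full-length Satb1 peaks from cells treated with camptothecin, a topoisomerase I inhibitor, touched 0.275% of gained against 0.530% of shared and 0.320% of lost against 0.436% of shared regions. Those after ICRF-193, a topoisomerase II inhibitor, touched 0.367% of gained against 0.800% of shared and 0.574% of lost against 0.674% of shared regions.

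Chromosome arms, with Y left out throughout, differed in both shares. The gained share was highest on 1q (40.5%, 39.7 to 41.3), followed by 22q (37.03%) and 8q (36.2%, 35.2 to 37.3), and lowest on 4q (19.6%, 18.6 to 20.6). The other arms of the same chromosomes were lower, at 31.3% on 1p and 29.9% on 8p. The lost share was highest on 18p (18.0%, 15.6 to 20.7) and 5p (15.7%) and lowest on 19p (7.72%, 6.69 to 8.86). Over these 41 arms the Spearman correlation of the arm's A/T content was −0.586 with the gained share and 0.616 with the lost share, as a description of arms that share libraries. The number of genes per Mb correlated with the gained share at 0.593 and with the lost share at −0.718. The native list was itself densest on 1q, with 111 regions per Mb against 71.8 on 1p, and the number of native regions per Mb correlated with the gained share at 0.724 and with the lost share at −0.699. Among regions with a −log10 q of at least 5, the gained share on 1q was 4.35%, below the 5.52% of the whole list, and on 8q 6.40%.

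**Figure D4:**
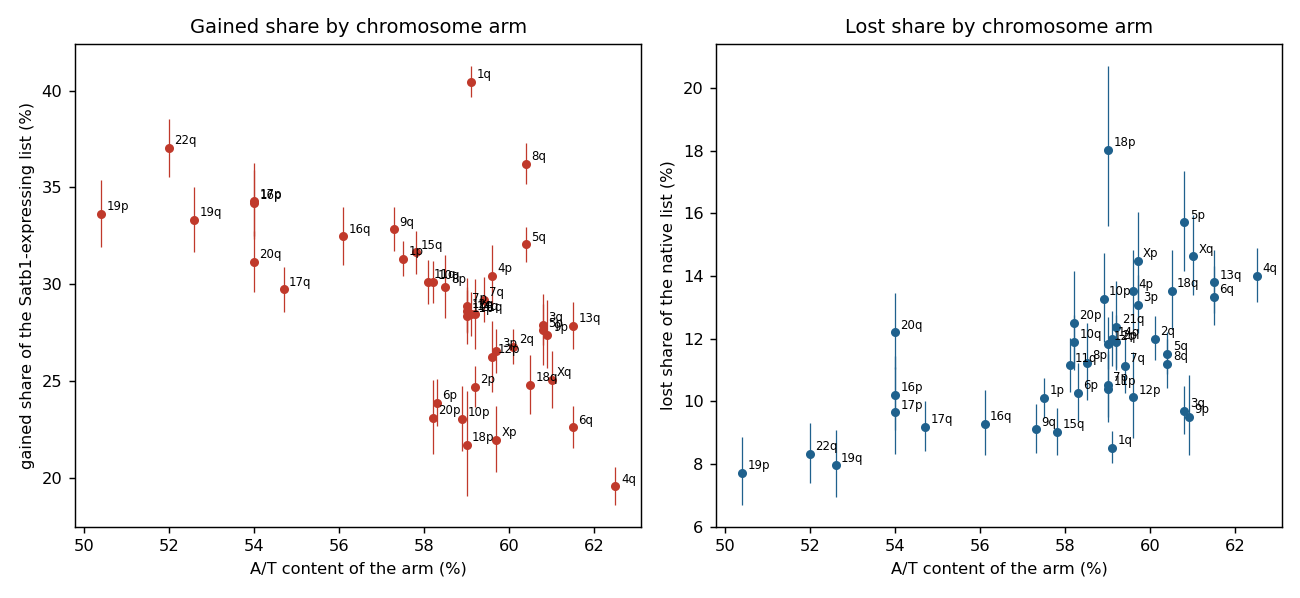
Gained share of the Satb1-expressing list (left) and lost share of the native list (right), in percent with 95% intervals, against the A/T content of each chromosome arm in percent. Axes do not start at 0. The arms 1q and 8q stand above arms of like A/T content in the left panel, and 18p in the right.

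The windows of 1 Mb with the most gained regions were chr1:245000001-246000000 (115 of 247 regions), with KIF26B, a kinesin family gene, chr1:214000001-215000000 (113 of 219), with PROX1, a homeobox gene of lymphatic endothelium, and chr5:1000001-2000000 (113 of 198), with TERT, the catalytic subunit of telomerase, and IRX4. The windows with the most lost regions were chr1:248000001-249000000 (35 of 81), a cluster of olfactory receptor genes, chr1:14000001-15000000 (33 of 66), with PRDM2 and KAZN, and chr1:240000001-241000000 (29 of 111), with FMN2.

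Lost regions also occurred as runs, with no region of the Satb1-expressing list between the first and the last. Runs of 4 or more numbered 124 and held 673 lost regions. The run with the most regions, on chr13:22375258-23402614, held 24 native regions, 16 of them with a −log10 q of at least 5 and the highest at 53.6. FGF9, a fibroblast growth factor gene, was the nearest gene. The stretch around this run without any region of the Satb1-expressing list measured 1181 kb. The second, chr5:3845331-4571801, held 19 regions, 11 of them strong, near IRX1, a homeobox gene, and was followed by 10 more at chr5:4614268-4862974. In the window of 1 Mb from 4000001 on chromosome 5, 26 of 31 native regions were lost. Others lay at chr18:5518947-6069901 (12 regions) with EPB41L3, at chr10:110823475-111207791 (12 regions) near XPNPEP1, at chr17:12177771-12523945 (12 regions) with MYOCD, the myocardin gene, and at chrX:4850872-6144397 (11 regions) with NLGN4X.

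Each of the 5 lost runs with the most regions held ChIP-seq peaks called in Satb1-expressing MCF10A cells. Full-length Satb1 peaks numbered 8 in the run near FGF9 and 3 in the one near IRX1, and 2, 1 and 4 in those with EPB41L3, near XPNPEP1 and with MYOCD. Peaks of the construct with the N-terminal and CUT1 domains numbered 20, 10, 11, 11 and 11. The 5 runs with the most gained regions held 1, 0, 1, 0 and 0 full-length peaks, and 2, 0, 1, 0 and 0 of that construct. They spanned 60.2 to 409 kb, against 346 to 1027 kb for these lost runs. Runs with fewer regions could be longer. One of 13 gained regions at chr22:48894499-49636611 spanned 742 kb, and the lost run with NLGN4X spanned 1294 kb. No count was set against the density of peaks over the genome, so nothing about Satb1 binding is read from them. The copy number of the lost runs in the cells of either ATAC-seq library was not tested.

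Runs of 4 or more gained regions numbered 1918 and held 9658 regions, of which 593 (6.14%) had a −log10 q of at least 5, against 263 (39.1%) of the 673 in lost runs. The one with the most regions, chr7:157385783-157794358 in PTPRN2, a receptor-type phosphatase gene, held 28 gained regions with a median −log10 q of 1.69 and 1 above 5. The next was chr1:2890753-3027849 beside PRDM16, with 18 regions and none above 5. In these 2 runs the mean A/T content was 42.4% and 41.8%, against 55.3% and 55.9% in the lost runs near FGF9 and IRX1.

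By nearest protein-coding start, gained regions were assigned to 13750 of 19821 genes and lost regions to 8144. The genes with the most gained regions were KIF26B (89 of its 179 regions), ZFAT (88 of 168), TPTE (81 of 177), PTPRN2 (79 of 123), KHDRBS3 (77 of 173), KCNK9 (75 of 127), ST3GAL1 (75 of 138), PROX1 (73 of 115), SIPA1L2 (71 of 151) and CAMTA1 (70 of 142). KIF26B, PROX1 and SIPA1L2 lie on chromosome arm 1q, and ZFAT, KHDRBS3, KCNK9 and ST3GAL1 on 8q. The share of gained regions at these genes ran from 44.5% (KHDRBS3) to 64.2% (PTPRN2). These genes were picked by this count, so nothing is read from their standing above the 29.8% of the whole list. The genes with the most lost regions were KAZN (36 of its 85 native regions), ENSG00000284209 (27 of 50), TENM2 (25 of 149), ADGRL2, LRRC4C and XPNPEP1 (24 each), and CELF4, CNTNAP5, NRG3 and ROBO1 (22 each). These genes too were picked by their count, and several have many native regions in all.

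At promoters the lists were close. Of 19821 protein-coding genes, 15013 (75.7%) had a promoter touched by both lists and 3679 by neither. A promoter was touched in Satb1-expressing cells only for 914 genes (4.61%) and in native cells only for 215 (1.08%). Counts of the gene lists below are to be set beside these shares, and in short lists 1 gene weighs heavily (6.67% of a list of 15). For 352 of the 914 (38.5%) and 47 of the 215 (21.9%) the region itself was shared, so that it met the other list outside the promoter, as it did for the 10 strongest of each kind. The regions at these promoters were weak, with a median −log10 q of 2.79 and 3.01, against 106 and 84.9 for promoters touched by both. Promoters of the native list only were richer in A/T (51.7%, 50.5 to 52.9) than those of both lists (45.1%, 44.9 to 45.2), and those of the Satb1-expressing list only lay between (46.2%, 45.7 to 46.7).

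Genes of mammary epithelium kept their open promoters. All 24 basal mammary genes were touched in both lists, among them the basal keratin genes KRT5 (−log10 q 185 in Satb1-expressing and 115 in native cells) and KRT14 (11.8 and 25.7), TP63, the transcription factor of basal cells (18.6 and 13.9), and EGFR (101 and 70.1). These values come from lists of unknown depth and are not compared. Regions nearest to the basal genes were gained in 23.5% of 383 and lost in 10.7% of 364, beside 29.8% and 11.2% over the whole lists. Of 21 luminal genes 15 were touched in both lists. The estrogen-responsive trefoil genes TFF1 (6.93) and TFF3 (1.75) were touched in Satb1-expressing cells only. The progesterone receptor gene PGR, KIT and KRT19 were touched in neither.

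Of 20 epithelial adhesion and identity genes, 18 were touched in both lists and RAB25, a recycling endosome GTPase gene, in the native list only (10.6, a shared region). Of 23 mesenchymal genes 18 were touched in both, COL5A1, a fibrillar collagen gene, in Satb1-expressing cells only (4.48, a shared region) and THY1 in native cells only (1.48). All but NRG3 of the 15 genes for ERBB receptors and ligands and all but BATF of the 15 AP-1 family genes were touched in both lists, including FOSL1. The AP-1 family genes had 28.6% of 182 nearest regions gained and 7.06% of 170 lost, beside 29.8% and 11.2% over the whole lists.

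Among 15 genes for Satb1, its relatives and partners, 14 were touched in both lists and CUX2, another CUT homeobox gene, in Satb1-expressing cells only (32.1, a shared region). Among 15 genes tied to SATB1 in breast cancer, 14 were touched in both, and MMP9, the gelatinase gene, in Satb1-expressing cells only (2.75). The endogenous SATB1 gene, chr3:18386869-18487113, held 4 regions in Satb1-expressing and 5 in native cells. Its 2 promoter regions were in both lists, the upstream one at a −log10 q of 18.9 and 24.9, and 1 intronic native region was lost (2.56). These regions are no check of the transgene.

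T cell genes, whose control by Satb1 is best known, split in 4 ways: of 26, 11 were touched in both lists and 11 in neither. The co-receptor gene CD4 (4.39), FOXP3, the factor of regulatory T cells (1.40), and the kinase gene ZAP70 (5.46, a shared region) were touched in Satb1-expressing cells only, and RUNX3 in native cells only (19.3, a shared region). These were 11.5% and 3.85% of the T cell genes, beside 4.61% and 1.08% over all genes. Of 21 matched interferon response genes 20 were touched in both lists. Of 84 cytoplasmic ribosomal protein genes 83 were touched in both.

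Long genes of A/T-rich regions leaned to the native list. Of 23 matched, 4 (17.4%) were touched in native cells only and 0 in Satb1-expressing cells only, beside 1.08% and 4.61% over all genes. The 4 were LRP1B (4.20), DPP10 (3.50), CSMD1 (2.00) and EYS (5.25), each touched by a lost region. Of 1218 native regions nearest to genes of this list 22.4% were lost, against 11.2% in the whole list, and of 1226 regions of the other list 23.2% were gained, against 29.8%. The list was picked for A/T-rich surroundings, and lost regions were rich in A/T over the whole native list. Genes matched for A/T content were not compared. Of 476 zinc finger genes 396 were touched in both lists, 11 (2.31%) in native cells only and 2 (0.420%) in Satb1-expressing cells only. Over all genes these 2 shares were 1.08% and 4.61%. The strongest of the 11 were ZNF879 (34.1), ZNF726 (24.4), ZNF442 (17.9) and ZNF502 (9.17), and the 2 were ZNF630 (21.1) and ZNF883 (2.79).

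Of 55 keratin genes, 7 (12.7%) were touched in Satb1-expressing cells only and KRT10 (4.45, 1.82% of the genes) in native cells only. Over all genes these shares were 4.61% and 1.08%. The strongest of the 7 were KRT3 (55.4), KRT79 (7.87), KRT71 (2.78) and KRT13 (2.25). The regions at KRT3, KRT79 and KRT13 were shared regions that reached the promoter in 1 list only, and 6 of the 7 lie in the type II cluster on chromosome 12. Keratin-associated protein genes were touched in Satb1-expressing cells only for 9 of 94 (9.57%) and in native cells only for 5 (5.32%). In the same order, olfactory receptor genes numbered 10 and 14 of 390 (2.56% and 3.59%). Clustered protocadherin genes numbered 4 and 3 of 53 (7.55% and 5.66%), and HOX genes 1 each of 39 (2.56% each). HOXD12 was touched in native cells only by a strong region (65.9) that overlapped a region of the other list outside the promoter.

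**Figure D5:**
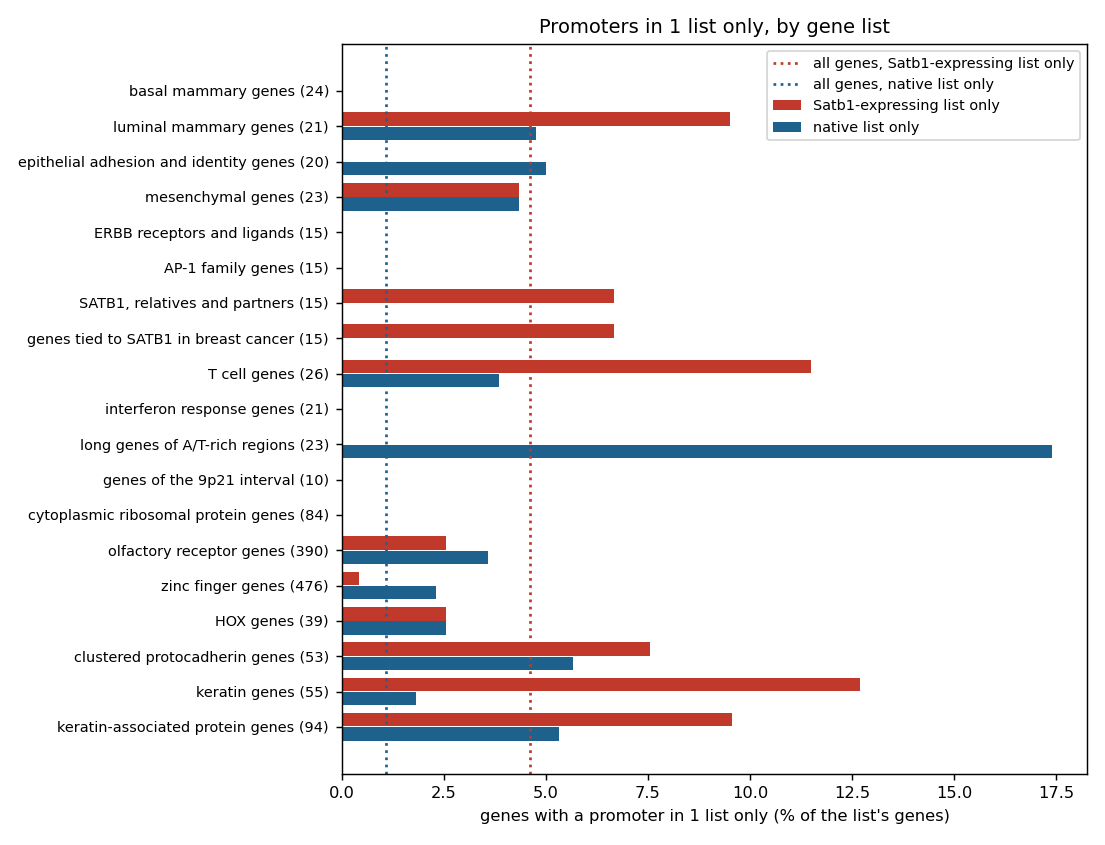
Share of the genes of each list (number of genes in brackets) with a promoter touched by 1 ATAC-seq list only, in percent, with dotted lines at the shares over all 19821 genes (4.61% and 1.08%). Bars for long genes of A/T-rich regions and zinc finger genes are longer for the native list, and those for keratin genes for the Satb1-expressing list.

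The label of an epithelial line was set beside marker promoters. All 11 epithelial markers, 2 of 8 lymphocyte, 5 of 7 fibroblast, 5 of 5 neuron and 1 of 4 hepatocyte markers were touched in both lists. PTPRC, CD3D, CD3E, ALB and APOB were touched in neither. Open promoters of other cell types do not report expression. Both lists shared the gap at 9p21 that is known of MCF10A cells: no region lay between 21855825 and 22158261 on chromosome 9, a stretch of 302 kb with CDKN2A and CDKN2B.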

How the data were processed

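ATAC-seq of native and of Satb1-expressing MCF10A cells was analysed from 1 deposited list of broad regions each. The authors trimmed reads with cutadapt, discarded libraries with a low enrichment at transcription starts, aligned to hg19 and called broad regions with MACS2. The submitters' processing notes also name Bowtie2. For the ATAC-seq steps, versions, read depth and the pooling of duplicates are not given in the sources used here. For each region the authors' MACS2 output gives a fold enrichment, the ratio of pileup to local background. It also gives, as deposited, a −log10 p-value, and the same for q. Depth moves the number and width of weak regions, and regions under the threshold are not listed.

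Regions were intersected by 1 bp or more. A/T content and letters were counted in 200 bp of hg19 at the region midpoint. Starts came from protein-coding transcripts of GENCODE 44 lifted to GRCh37. Satb1 ChIP-seq peak lists of the series, with the authors' fold enrichment, were used for overlap only. Functions were tested on simulated intervals and sequences and against bedtools 2.31.1. Python 3.11.15, numpy 2.4.6, pandas 2.3.3, scipy 1.17.1, pysam 0.24.0 and matplotlib 3.10.9 were used.

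With 1 list per condition no test was run. The 5 gained and 5 lost regions with the largest −log10 q, the 10 genes nearest to most regions of each class, 3 windows of 1 Mb for each class, and the list members with a promoter in 1 list only were named (up to 4 for gene families). Sequences in annotated exons and on chromosome 8 were passed over. A few items that these rules name are not reported here. Runs, genes of marker lists with both values, words of 6 letters, bins of strength and A/T content, and the Alu word were added after values had been seen. Members and lists were chosen with earlier results of these data known.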

Additional observations from a re-analysis of the deposited data

How the results depend on the processing

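Of 40 alternatives to 8 values, 10 left the value within its interval or, for counts of genes, within 1.5 times. The gained share of 29.8% became 47.1% with a reciprocal overlap of 50%, 16.9% at a −log10 q of at least 5 in both lists, 15.2%, 13.9% and 20.8% with the 50000, 100000 and 175989 strongest regions of each list, 16.0% with the 50000 largest fold enrichments, and 0.048% for the 50000 strongest against the whole native list. The lost share of 11.2% became 38.1%, 9.17%, 12.6%, 10.5%, 14.1%, 13.7% and 0.084%, in the same order. The promoter share of gained regions became 5.87% with 2000 bp on either side of a start, 6.38% with transcripts of every type and 2.78% with 1 bp in a promoter, and that of lost regions 4.30%, 4.66% and 1.94%, and 2.10% with the 100000 strongest. Gained minus shared A/T content was −1.69 points in 100 bp, −2.96 over whole regions, −3.15 in distal regions, −0.348 at a −log10 q from 5 to 20 (added after seeing the data) and reversed to 2.09 with the 100000 strongest. Lost minus shared was 4.57, 3.47, 2.98 and 4.24 in the first 4 of these. With the 100000 strongest, gained and lost meant no overlap with the other list's 100000 strongest, a different set from that over whole lists. Genes with a promoter in 1 list only numbered 631 to 914 for Satb1-expressing and 158 to 295 for native cells. The cause of these changes was not tested beyond the list sizes they set.

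No paired analysis was possible because there was 1 list per condition, and there was no replicate to leave out. Depth limits the weak regions most, since a list does not show signal under its threshold.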
